A study of Mus musculus with 6 samples.

Results

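The genes described here belong to families that include BTB adaptors of cullin 3 ubiquitin ligases, the class of proteins to which ARMC5 belongs. They were chosen by symbol alone, as a KLHL, KBTBD, BTBD or KCTD name followed by a number, together with Keap1, Spop, Spopl and the Rhobtb genes. Of 12107 genes with counts, 63 were members. They comprised 25 KLHL, 6 KBTBD, 11 BTBD and 16 KCTD genes and 5 others, which were Keap1, Spop, Spopl, Rhobtb2 and Rhobtb3. The rule used symbols alone, but the study's methods state that genes with no POLR2A signal in KO cells had been removed, so which of the matching genes could be members depended on KO signal. A further 22 symbols of the GENCODE annotation fit it, Rhobtb1 and Kbtbd8 among them, and were not analysed here.

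In a ligase of this class CUL3 is the scaffold, RBX1 brings in the E2 enzyme that carries ubiquitin, and a protein with a BTB domain ties the substrate to CUL3. The substrate is held by another domain, such as the Kelch propeller of KLHL and KBTBD proteins or the MATH domain of SPOP and SPOPL. ARMC5 is an adaptor of this kind for POLR2A, the catalytic subunit of RNA polymerase II (Pol II), and KEAP1, which holds the transcription factor NRF2, is the best known of its fellows. The families are defined by sequence, and some members, such as KCTD12, are known less as adaptors than as auxiliary subunits of the GABA-B receptor. Adaptor function was not tested here for any member.

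Pol II occupancy was mapped by ChIP-seq, the sequencing of DNA that is precipitated with a chromatin protein, using an antibody against the N-terminal part of POLR2A (RPB1) in mouse neural precursor cells (NPCs, neural stem cells in the labels). The cells came from ganglionic eminences of e13.5 fetuses and were grown with epidermal growth factor as neurospheres, which were used at passage 2. There were 3 wild-type (WT) libraries and 3 libraries of Armc5(-/-) cells (KO), numbered as pairs 1 to 3 and all labelled with the strain 129 sv X CD1, while the study's methods name a cross of CD1 and C57BL/6. The KO is germline, so that cells of every type lacked the gene from the start. Armc5 was not analysed here, and the genotype was therefore not checked on its own counts.

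Reads had been counted per gene in a promoter window (from 400 bases upstream to 100 bases downstream of the transcription start site, TSS), in the gene body (between 100 bases inside either end) and in the region of the transcription end site (TES, from 100 bases upstream to 2000 bases downstream). Levels below are CPM, which are counts scaled to a common library size after TMM normalisation. Levels of different genes are compared only as CPM per kb of the region. Neither an input library nor a spike-in was used here, so a level is a share of a library's reads, and a culture in which fewer cells carried Pol II on a gene cannot be told apart from a culture with less Pol II per cell.

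The 6 libraries held 14528870 to 25199455 counts, of which 0.477% to 0.518% fell in the 63 members. Both libraries of pair 3 had the lowest share of counts in promoters (6.04% and 6.88%, against 10.9% to 12.2% in the others), and promoter values of the members were lowest in that pair for most genes. Y-linked genes gave 0.731 CPM in WT replicate 3 and 118 to 216 CPM in the other libraries. Of the markers of neural precursors 11 of 12 had counts, with a summed gene body signal of 271 to 610 CPM in WT and 319 to 640 CPM in KO. Of other cell types, 5 of 6 neuronal, 3 of 5 oligodendrocyte lineage, 1 of 4 astrocyte and 1 of 4 endothelial or mural markers had counts and were uncalled, and none of 7 microglia and blood or 5 mesenchymal markers was among the genes counted.

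The members lie on 18 chromosomes, with Klhl13, Klhl15 and Klhl34 on the X, and span 1.94 to 361 kb (median 25.8 kb, GENCODE vM21 on GRCm38). In 9 of them the coding sequence is a single exon, and these were Kbtbd6, Kbtbd7, Kbtbd11, Kctd11, Kctd12, Kctd21, Klhl9, Klhl25 and Klhl34. The promoter window of 21 members overlaps another annotated gene, on the opposite strand for 17 of them, and no strand is stated for the counts. The same holds for 31 gene bodies and 20 TES regions, and reads there may belong to either gene. Examples among the promoters are those of Kctd2 (Atp5h), Klhl28 (Togaram1), Klhl21 (Gm9768), Klhl9 (Gm13274, Gm26566), Kctd11 (Acap1), Kctd12 (Mir5130), Kctd15 (Gm12781) and Btbd9 (AC174471.1, AC165962.1). Other examples are the gene bodies of Kctd12 (Gm26778), Klhl21 (Gm9768), Keap1 (Gm16754) and Btbd9 (6 genes) and the TES regions of Kctd15 (Gm44837), Kctd13 (Gm21984, Asphd1) and Klhl20 (Cenpl). Promoter sequences from RefSeq (GRCm38.p6, 250 bases before to 50 bases after the TSS) were matched for 51 members. The GC box GGGCGG was found on either strand in 84.3% of these and in 68.4% of the 9470 promoters matched over all genes. The CCAAT box was found in 27.5% and 39.4%, the TATA box TATAAA in 5.88% and 6.20%, the E-box CACGTG in 11.8% and 10.3%, and TGACNNNGC, the core of the antioxidant response element to which NRF2 binds, in 21.6% and 14.6%. The median GC content was 62.3% for members and 61.7% for all.

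The promoters of 7 members are shown because the values below turn on them, with every match to those motifs in capitals. Kctd2 (chr11:115419876-115420175 on the plus strand) and Klhl28 (chr12:64965487-64965786 on the minus strand) had the highest promoter signal in WT cells among the members with a sequence. Klhl34 (chrX:157818185-157818484 on the plus strand) and Klhl35 (chr7:99465754-99466053 on the plus strand) were among the 3 members with the lowest. Klhl21 (chr4:152008641-152008940 on the plus strand) had the smallest p for a KO difference in promoters, and Kctd12 (chr14:102982588-102982887 on the minus strand) that in gene bodies. Keap1 (chr9:21239283-21239582 on the minus strand) is the reference adaptor of the class.
Kctd2: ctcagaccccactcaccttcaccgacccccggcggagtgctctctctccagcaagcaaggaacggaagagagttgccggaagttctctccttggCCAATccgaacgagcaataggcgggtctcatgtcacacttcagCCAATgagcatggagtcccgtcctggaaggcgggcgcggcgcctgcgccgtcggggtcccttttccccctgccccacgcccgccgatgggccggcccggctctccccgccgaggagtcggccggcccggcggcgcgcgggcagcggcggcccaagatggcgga
Klhl28: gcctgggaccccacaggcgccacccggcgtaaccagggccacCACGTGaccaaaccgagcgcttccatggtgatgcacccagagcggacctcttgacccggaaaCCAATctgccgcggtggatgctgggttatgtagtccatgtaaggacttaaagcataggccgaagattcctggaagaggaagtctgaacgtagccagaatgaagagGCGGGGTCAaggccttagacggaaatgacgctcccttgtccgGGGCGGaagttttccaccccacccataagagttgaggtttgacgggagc
Klhl34: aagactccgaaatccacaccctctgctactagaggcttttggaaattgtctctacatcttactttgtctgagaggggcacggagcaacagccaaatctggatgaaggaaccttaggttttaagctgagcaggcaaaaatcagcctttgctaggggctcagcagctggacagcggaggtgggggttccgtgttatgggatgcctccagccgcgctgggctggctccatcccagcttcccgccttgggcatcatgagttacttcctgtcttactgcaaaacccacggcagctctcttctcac
Klhl35: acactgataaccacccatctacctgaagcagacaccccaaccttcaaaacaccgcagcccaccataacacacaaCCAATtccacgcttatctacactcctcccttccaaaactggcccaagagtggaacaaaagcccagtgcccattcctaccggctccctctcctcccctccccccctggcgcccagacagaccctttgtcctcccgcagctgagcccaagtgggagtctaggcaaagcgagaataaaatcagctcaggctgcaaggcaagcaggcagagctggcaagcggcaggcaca
Klhl21: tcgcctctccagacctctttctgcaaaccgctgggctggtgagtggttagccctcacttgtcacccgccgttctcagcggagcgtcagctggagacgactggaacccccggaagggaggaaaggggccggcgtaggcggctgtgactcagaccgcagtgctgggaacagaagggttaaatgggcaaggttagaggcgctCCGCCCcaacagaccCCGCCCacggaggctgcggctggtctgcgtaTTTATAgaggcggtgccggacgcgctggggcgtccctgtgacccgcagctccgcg
Kctd12: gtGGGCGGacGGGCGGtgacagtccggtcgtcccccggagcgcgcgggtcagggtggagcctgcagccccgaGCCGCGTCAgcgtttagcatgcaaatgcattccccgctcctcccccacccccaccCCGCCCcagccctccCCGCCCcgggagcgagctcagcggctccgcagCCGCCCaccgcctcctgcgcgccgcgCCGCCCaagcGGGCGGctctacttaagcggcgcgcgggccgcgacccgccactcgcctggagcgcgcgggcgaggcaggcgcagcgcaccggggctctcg
Keap1: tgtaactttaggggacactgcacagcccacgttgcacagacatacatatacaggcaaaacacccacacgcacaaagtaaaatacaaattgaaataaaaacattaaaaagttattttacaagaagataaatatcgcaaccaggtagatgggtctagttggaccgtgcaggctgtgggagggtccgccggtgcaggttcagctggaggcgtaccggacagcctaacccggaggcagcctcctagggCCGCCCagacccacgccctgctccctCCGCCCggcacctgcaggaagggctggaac

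The promoter of Kctd2 holds 33 CpG dinucleotides and 2 CCAAT boxes, and that of Klhl28 18 CpG, with an E-box, a CCAAT box, a GC box and a TGACNNNGC match. Klhl34, with 8 CpG, holds none of the motifs searched, and Klhl35, with 7 CpG, holds a CCAAT box. Klhl21 has 2 GC boxes and a TATA box on the minus strand close to the start. The 300 bases of Kctd12 hold 7 GC boxes, a TGACNNNGC match and 45 CpG, and those of Keap1 hold 2 GC boxes and 13 CpG. A match is a run of letters, not a measured site.

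In WT cells promoter signal of the members ranged over more than an order of magnitude. Btbd1, whose product binds topoisomerase I, was highest at 40.8 ± 14.7 CPM per kb (SD, n = 3). Kctd2 followed at 40.4 ± 14.1 and Klhl28 at 37.0 ± 13.6 CPM per kb, and the order among these 3 was within their SDs. The lowest were Klhl34 at 0.640 ± 0.301, Kctd15, an inhibitor of AP-2 factors in neural crest, at 1.17 ± 0.169 and Klhl35 at 1.74 ± 1.09 CPM per kb.

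Gene bodies varied less. Btbd19 was highest at 4.54 ± 1.09 CPM per kb, followed by Kctd11 at 4.41 ± 1.28, Kctd17 at 4.15 ± 1.21 and Keap1 at 4.03 ± 0.931 CPM per kb, all within each other's SDs. Kctd8, a GABA-B receptor subunit, was lowest at 0.636 ± 0.348, with Klhl34 at 0.75 ± 0.592 and Klhl29 at 0.773 ± 0.355 CPM per kb. Per-length gene body levels are not given for Btbd3, Btbd6, Btbd17, Kctd7, Klhl11 and Rhobtb2, whose spans differed by over 1.5 times between GENCODE and RefSeq.

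Several members had Pol II in the gene body with little in the promoter window. The promoter to gene body ratio of signal per base was 36.2 ± 18.5 for Klhl28, 28.6 ± 9.82 for Btbd10 and 25.8 ± 10.1 for Btbd1 in WT cells. It was 1.01 ± 0.302 for Keap1, 0.554 ± 0.280 for Btbd2, 0.525 ± 0.0895 for Btbd19 and 0.384 ± 0.0617 for Kctd15. For 7 members the TSS listed in RefSeq lay over 100 bases from the GENCODE start, by 1223 bases for Kctd15 and 577 for Btbd2, and the median promoter signal of these 7 was 3.88 CPM per kb in WT, against 15.0 CPM per kb in the 44 within 100 bases. The same medians over all genes were 6.72 and 12.9 CPM per kb. Keap1 and Btbd19, at 29 and 67 bases, were among the 44 members within 100 bases. By which annotation the windows were placed is not stated in the sources, and its part in the low promoter values was not tested.

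**Figure D1:**
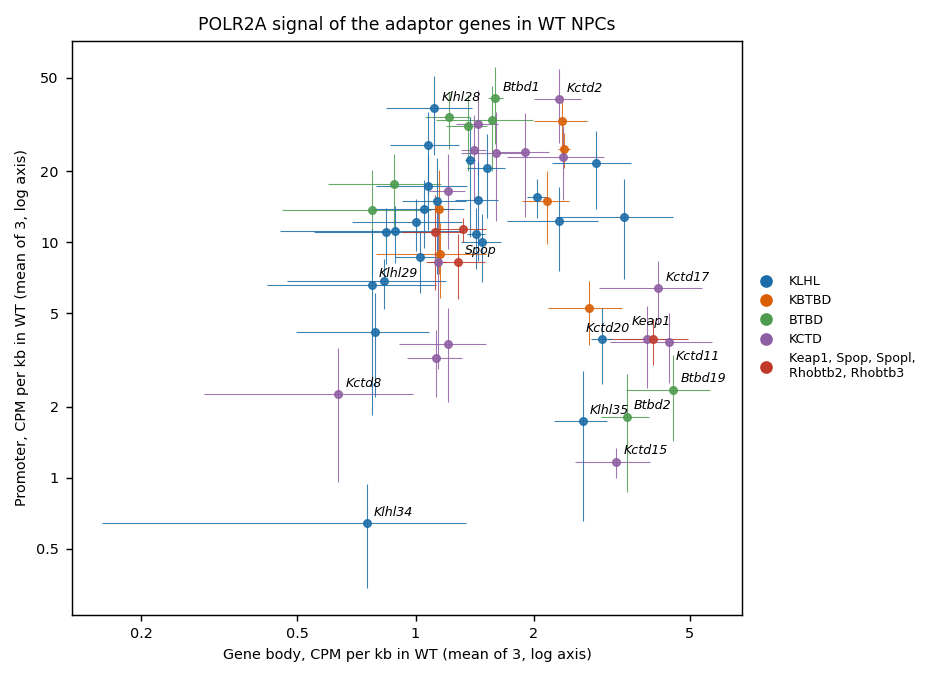
Promoter signal against gene body signal in WT NPCs, in CPM per kb on log axes, as mean (points) and SD (bars) of 3 libraries, for the 57 members with a gene body length that agreed between annotations, coloured by family. Btbd1, Kctd2 and Klhl28 lie at the top, Klhl34 at the bottom, and Keap1, Kctd20, Btbd2 and Kctd15 lie at the right with low promoter signal.

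The CpG content of the promoters was set beside their signal. Across the 51 members the Spearman correlation between the number of CpG in the listed promoter and WT promoter signal was 0.325, and it was 0.407 across 9470 genes, as descriptions across genes of the same libraries. Members with at least 22 CpG had a median of 14.5 CPM per kb and those with fewer 13.8 CPM per kb, while the medians over all genes were 15.6 and 8.00 CPM per kb.

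Each member was then compared between KO and WT cells. This addresses whether loss of an adaptor for POLR2A went with other Pol II occupancy on the genes of its fellow adaptors, relative to all genes. The paper reports more POLR2A protein in KO NPCs, and a rise in occupancy shared by all genes would not show in these scaled values. No member was called in any region at an adjusted p under 0.1 by limma-voom, in which each replicate pair was a block. Over all genes 0.173% of promoters, 0.206% of gene bodies and 0.0248% of TES regions were called, which comes to 21, 25 and 3 of 12107 genes. The smallest adjusted p was 0.306 in promoters (Klhl21), 0.393 in gene bodies (Kctd12) and 0.501 in TES regions (Kctd15). The quasi-likelihood test of edgeR and the Wald test of DESeq2, both with the block, also called 0 members in each region. With no replicate block limma called 0 members as well, and 0 passed an unadjusted p of 0.05 in any region. Few genes of any kind passed that threshold without the block: 0.537% of all promoters, 0.289% of gene bodies and 0.223% of TES regions.

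At an unadjusted limma p under 0.05 stood 5 member promoters, 7 gene bodies and 4 TES regions (7.94%, 11.1% and 6.35% of 63, against 9.95%, 8.41% and 6.24% of all genes). Of the promoters 3 were higher and 2 lower in KO cells (4.76% and 3.17%, against 7.55% and 2.4%). In gene bodies 5 were higher and 2 lower (7.94% and 3.17%, against 4.82% and 3.59%), and in TES regions 0 were higher and 4 lower (0% and 6.35%, against 1.4% and 4.84%). By edgeR 4, 6 and 5 members passed this unadjusted threshold in promoters, gene bodies and TES regions, where 9.94%, 7.57% and 5.88% of all genes did. By DESeq2 2, 3 and 0 members passed it, with 3.06%, 3.16% and 0.983% of all genes. The median log2 difference of the members, KO minus WT, was 0.04 in promoters, 0.02 in gene bodies and -0.09 in TES regions. The medians over all genes were 0.03, -0.01 and -0.08. With TMM scaling within each kind of region the TES medians were -0.02 for members and -0.01 for all genes.

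Signs were mixed in all 3 regions. In promoters 37 of 63 log2 differences were above 0, in gene bodies 35 and in TES regions 24, which is 58.7%, 55.6% and 38.1%, against 54.8%, 45.3% and 34.4% of all genes. All 3 pairs had the same sign for 19 member promoters, 22 gene bodies and 22 TES regions (30.2%, 34.9% and 34.9%, against 31.4%, 30.6% and 28.6%). Every KO library was above every WT library in the gene bodies of Kctd12, Kbtbd6 and Klhl11 (4.76% of members, against 1.5% of all genes). Every KO library was below every WT library in the TES regions of Klhl18, Klhl20, Kctd13, Kctd15 and Spopl (7.94%, against 3.28%). No member promoter had KO libraries all above or all below WT, as 2.24% and 0.33% of all promoters had. Nor was a member's gene body below WT in all KO libraries (0.603% of all genes) or a TES region above (0.809%).

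The width of the intervals sets what could be seen, and a log2 difference given below with ± carries its SE from the limma fit. The median SE of a member's log2 difference was 0.161 in promoters, 0.0805 in gene bodies and 0.203 in TES regions. The 95% interval lay within a 2-fold change either way for 58 promoters, 62 gene bodies and 59 TES regions, and within 1.5-fold for 39, 59 and 22. Among the genes kept by the study's filter, no count was 0 in any of the 189 member regions, and only the Klhl34 promoter had a mean under 10 counts. The signal summed over member gene bodies was 3664, 4094 and 5202 CPM in WT and 3727, 4049 and 4917 CPM in KO, with overlapping groups (two-sided exact permutation p = 0.9, where 3 against 3 cannot go below 0.1). For promoters the exact permutation p was 1. The TES sums were 249.98, 232 and 239 CPM in WT and 238, 210.0 and 237 CPM in KO, lower in KO in 3 of 3 pairs with overlapping groups (exact permutation p = 0.4, adjusted p = 1 as for the others). An exact permutation within pairs gave p = 0.25 for TES regions, which is the smallest that 3 pairs allow, 0.75 for gene bodies and 1 for promoters.

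**Figure D2:**
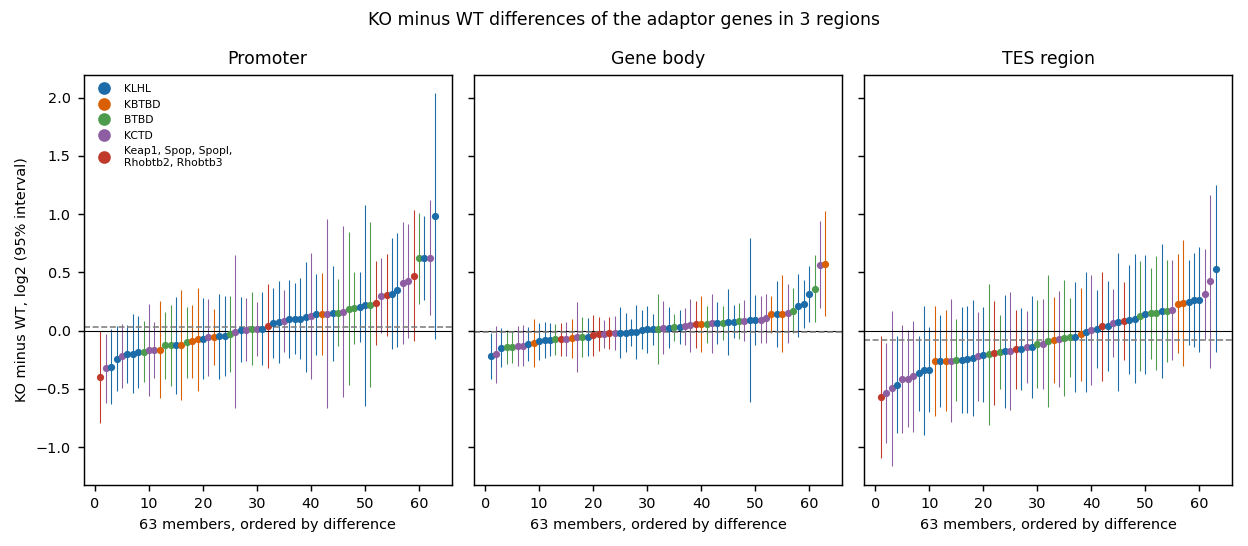
KO minus WT log2 differences with 95% intervals for the 63 members in promoter, gene body and TES region, each ordered by size and coloured by family, with the median over all genes dashed. Most intervals cross 0, gene body intervals are the narrowest, and the TES differences lie mainly below 0, as the median over all genes does.

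Keap1, with SPOP the most studied adaptor here, differed little in the body of its gene (chr9:21229730-21239361). Its gene body held 43.5, 42.7 and 27.9 CPM in WT and 43.5, 40.0 and 27.3 CPM in KO, a log2 difference of -0.04 ± 0.08 with a 95% interval of -0.21 to 0.13. The Keap1 promoter held 2.39, 1.54 and 1.87 CPM in WT and 2.41, 3.36 and 2.12 CPM in KO. KO replicate 2 stood above the other KO libraries there, the groups overlapped, and the log2 difference of 0.47 ± 0.26 was uncalled (adjusted p = 0.668).

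Spop, whose product targets regulators such as GLI factors and steroid receptor coactivators, was lower at its promoter in each KO library than in the WT library of the pair. It held 5.08, 4.63 and 2.68 CPM in WT and 3.78, 3.36 and 2.34 CPM in KO, a log2 difference of -0.40 ± 0.18 (adjusted p = 0.601), and the groups overlapped. Its gene body differed by -0.07 ± 0.06 and its TES region by 0.04 ± 0.22. Its paralog Spopl had 2.54, 2.69 and 2.84 CPM in WT and 1.19, 2.16 and 2.27 CPM in KO in the TES region, where all KO libraries lay below all WT libraries at -0.57 ± 0.24 (adjusted p = 0.578), with gene body and promoter at -0.03 ± 0.07 and 0.04 ± 0.17. Rhobtb2 and Rhobtb3, which encode atypical GTPases with BTB domains, gave promoter log2 differences of 0.24 ± 0.17 and 0.31 ± 0.16, and gene body differences of 0.05 ± 0.09 and -0.02 ± 0.06.

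KLHL9, KLHL13 and KLHL21 act on Aurora B in mitosis, and KLHL22 on PLK1. The promoter of Klhl21 had the smallest p of all member promoters. It held 9.57, 3.96 and 5.61 CPM in WT and 11.7, 8.30 and 9.06 CPM in KO. Each KO library was above the WT library of its pair, while KO replicates 2 and 3 lay below WT replicate 1, and the fold was 1.54 (log2 0.62 ± 0.17, 95% interval 0.26 to 0.99, adjusted p = 0.306). Without pair 1 it was called (adjusted p = 0.0212), as were 2.03% of all promoters. The Klhl21 gene body held 39.9, 20.6 and 28.0 CPM in WT and 49.6, 20.4 and 35.3 CPM in KO, higher in KO in pairs 1 and 3 and alike in pair 2 (0.23 ± 0.09, adjusted p = 0.566).

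Klhl9 had values on either side. Its promoter held 11.9, 14.2 and 6.50 CPM in WT and 11.8, 9.30 and 5.17 CPM in KO (-0.31 ± 0.15, adjusted p = 0.628), its gene body 11.7, 13.9 and 8.77 CPM in WT and 13.8, 14.6 and 11.8 CPM in KO (0.21 ± 0.13) and its TES region differed by 0.26 ± 0.19. Klhl22 held 14.8, 14.1 and 4.39 CPM in WT and 12.4, 12.7 and 3.19 CPM in KO at its promoter, lower in KO in every pair (-0.24 ± 0.13, adjusted p = 0.664), with a gene body difference of 0.01 ± 0.08. Klhl13 gave -0.12 ± 0.19, -0.02 ± 0.10 and -0.18 ± 0.23 in promoter, gene body and TES region.

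Among other Kelch adaptors, Klhl11 had a gene body signal of 14.3, 16.8 and 14.9 CPM in WT and 17.8, 19.6 and 20.4 CPM in KO. All KO libraries lay above all WT libraries (0.31 ± 0.11, adjusted p = 0.470), while its promoter differed by -0.18 ± 0.14. Klhl42, which acts on the microtubule-severing protein katanin, had the smallest p among gene bodies lower in KO. It held 34.8, 27.5 and 31.7 CPM in WT and 28.0, 26.1 and 26.6 CPM in KO, with KO below WT in every pair but overlapping groups (-0.21 ± 0.09, adjusted p = 0.580). Klhl20, an adaptor for DAPK1 and PML, was at -0.15 ± 0.08 in its gene body (adjusted p = 0.663), and its TES region held 4.00, 4.15 and 4.96 CPM in WT and 3.99, 3.02 and 3.82 CPM in KO, where the highest KO library was narrowly below the lowest WT library.

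Klhl18 and Klhl25, the latter an adaptor for the translation repressor 4E-BP1, were lower in the TES region. Klhl18 held 3.86, 4.71 and 3.33 CPM in WT and 3.20, 2.93 and 2.48 CPM in KO there, with all KO libraries below all WT libraries (-0.46 ± 0.19, adjusted p = 0.562). Klhl25 held 10.5, 6.61 and 4.79 CPM in WT and 8.31, 5.13 and 3.47 CPM in KO, lower in KO in each pair with overlapping groups (-0.37 ± 0.15, adjusted p = 0.558). Klhl3, which holds WNK kinases in the kidney, gave 0.32 ± 0.22, -0.12 ± 0.07 and -0.34 ± 0.26 in promoter, gene body and TES region, and Klhl12, which acts on SEC31 of COPII coats, gave 0.10 ± 0.14, 0.01 ± 0.09 and -0.14 ± 0.20. In promoters Klhl28 was at -0.20 ± 0.11 (adjusted p = 0.680). Klhl34, with the lowest counts, was at 0.98 ± 0.49 in its promoter, with an interval of -0.07 to 2.04, and at 0.53 ± 0.33 in its TES region. Klhl23 and Klhl26, of the TES regions nearest to a call on the higher side, were at 0.24 ± 0.17 and 0.27 ± 0.21 (adjusted p = 0.752 and 0.778).

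KBTBD6 and KBTBD7 form a pair that acts on the RAC1 activator TIAM1, and their single-exon genes lie next to each other at chr14:79451835-79454818 and chr14:79426511-79431036. The Kbtbd6 gene body held 2.1, 4.04 and 3.49 CPM in WT and 4.21, 4.41 and 5.95 CPM in KO. The lowest KO library was above the highest WT library by a small margin, and the fold was 1.49 (log2 0.58 ± 0.21, adjusted p = 0.481). Kbtbd7 held 10.3, 9.89 and 7.88 CPM in WT and 8.85, 11.7 and 11.5 CPM in KO (0.15 ± 0.15), with overlapping groups. The promoters of Kbtbd6 and Kbtbd7 were at -0.12 ± 0.22 and -0.16 ± 0.19. Kbtbd2, which controls the p85 subunit of PI3 kinase, had a gene body difference of 0.14 ± 0.07 (adjusted p = 0.648), positive in every pair.

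Of the BTBD genes Btbd17 had the largest log2 difference in promoter and gene body. Its promoter held 7.18, 8.74 and 5.77 CPM in WT and 15.8, 9.97 and 7.50 CPM in KO, and its gene body 18.8, 26.5 and 16.0 CPM in WT and 31.3, 26.5 and 20.8 CPM in KO. KO replicate 1 stood far above the other libraries at the promoter, pair 2 was alike in the gene body, and the groups overlapped in both regions. The log2 differences were 0.62 ± 0.18 (adjusted p = 0.352) and 0.36 ± 0.13 (adjusted p = 0.488), with -0.06 ± 0.23 in the TES region. Without pair 3 the promoter was called (adjusted p = 0.0945), as were 0.842% of all promoters.

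Btbd9, linked by genetics to restless legs syndrome, is the longest member at 361 kb, and Btbd11 spans 273 kb. The Btbd9 gene body held 441, 511 and 741 CPM in WT and 478, 413 and 626 CPM in KO (-0.14 ± 0.07, adjusted p = 0.621). It was higher in KO in pair 1 and lower in pairs 2 and 3, and without pair 1 it was called (adjusted p = 0.00212), as were 0.818% of all gene bodies. Btbd11 held 136, 193 and 306 CPM in WT and 108, 194 and 281 CPM in KO (-0.14 ± 0.06, adjusted p = 0.606), with pair 2 alike in both genotypes.

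**Figure D3:**
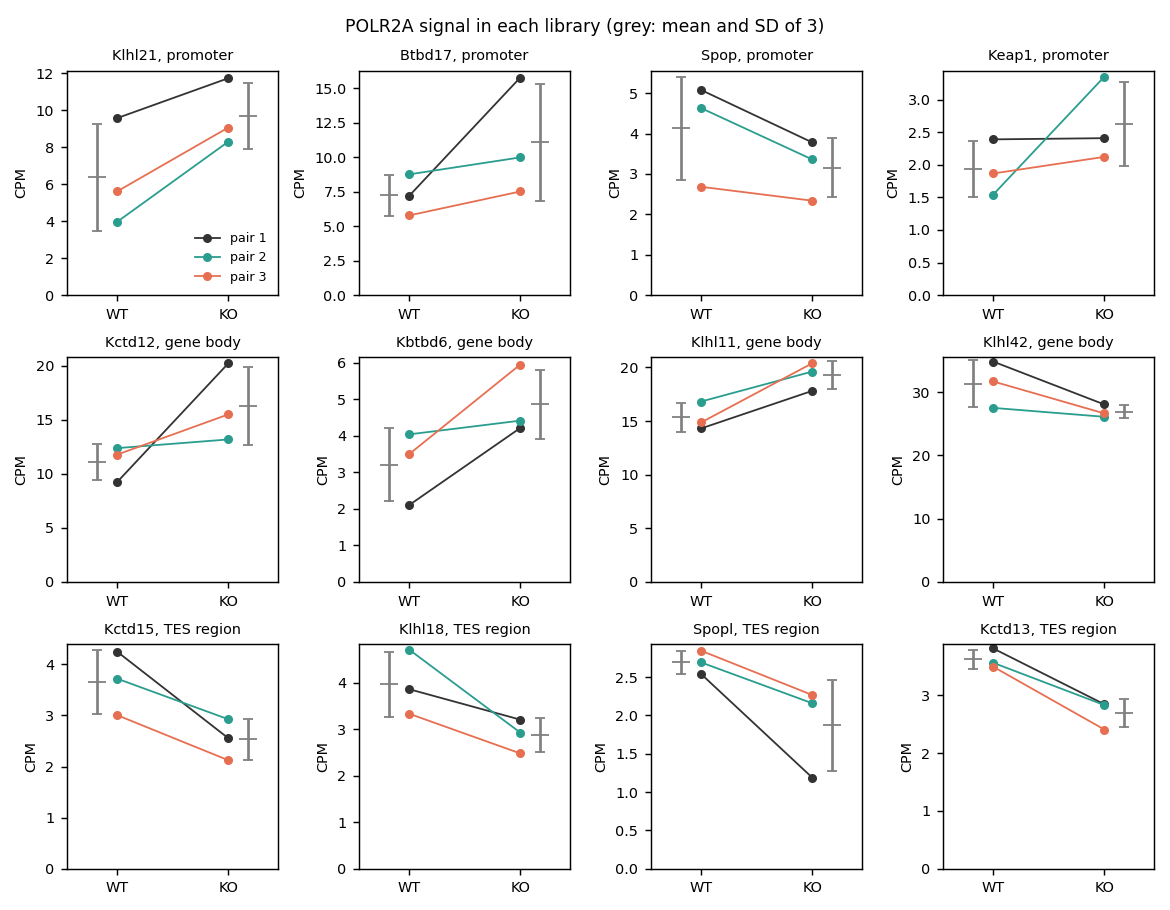
CPM in each library for 12 member regions, with WT and KO of a pair joined by a line and the mean and SD of 3 libraries in grey, all axes from 0. Groups overlap at the promoters of Klhl21, Btbd17, Spop and Keap1 and at the Klhl42 gene body, and do not overlap at the gene bodies of Kctd12, Kbtbd6 and Klhl11 and the TES regions of Kctd15, Klhl18, Spopl and Kctd13.

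Among KCTD genes, KCTD10 and KCTD13 act on RHOA, and Kctd13 was lower in KO at its promoter in every pair. It held 15.6, 14.8 and 6.66 CPM in WT and 13.4, 12.5 and 3.68 CPM in KO (-0.32 ± 0.14, adjusted p = 0.574), with overlapping groups. In the TES region it held 3.81, 3.56 and 3.49 CPM in WT and 2.84, 2.83 and 2.41 CPM in KO, where all KO libraries lay below all WT libraries (-0.41 ± 0.19, adjusted p = 0.610). Its gene body was at 0.11 ± 0.10. Kctd10 differed by 0.02 ± 0.11, 0.05 ± 0.11 and -0.07 ± 0.19 in promoter, gene body and TES region.

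KCTD11, KCTD6 and KCTD21 are adaptors for HDAC1 that dampen Hedgehog signalling. The Kctd11 promoter held 2.59, 1.42 and 1.62 CPM in WT and 3.42, 2.83 and 2.41 CPM in KO, higher in KO in every pair with WT replicate 1 above KO replicate 3 (0.63 ± 0.23, adjusted p = 0.488). Its gene body held 16.9, 12.8 and 9.34 CPM in WT and 19.7, 10.2 and 7.65 CPM in KO (-0.06 ± 0.14) and its TES region was at 0.31 ± 0.18 (adjusted p = 0.675). Kctd21 had a gene body difference of -0.20 ± 0.11 (adjusted p = 0.668), lower in KO in every pair, and Kctd6 differed by 0.15 ± 0.12 in its gene body and -0.39 ± 0.22 in its TES region.

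Kctd12 had the smallest p of all member gene bodies. Its single exon (chr14:102976581-102982637) held 9.23, 12.4 and 11.8 CPM in WT and 20.2, 13.2 and 15.5 CPM in KO. The KO libraries were all above the WT libraries, by little in pair 2 and most in pair 1, and the fold was 1.48 (log2 0.57 ± 0.17, 95% interval 0.19 to 0.94, adjusted p = 0.393). It was called without WT replicate 3 (adjusted p = 0.0998), with 1.24% of all gene bodies, and without KO replicate 3. Either step removes pair 3 from the genotype difference. With the whole of pair 3 left out, limma called 0 member gene bodies (smallest adjusted p = 0.119). The Kctd12 promoter, rich in GC boxes, differed by 0.08 ± 0.12. Kctd8, of the same receptor group, was at -0.02 ± 0.07 in its gene body.

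The TES region of Kctd15 had the smallest p of its kind. It held 4.25, 3.72 and 3.01 CPM in WT and 2.56, 2.93 and 2.12 CPM in KO, and all KO libraries were below all WT libraries, at 0.691 of the WT level (log2 -0.53 ± 0.20, adjusted p = 0.501). Its gene body was at 0.04 ± 0.07. Of the other KCTD genes, Kctd5 and Kctd2, related adaptors of which KCTD5 acts on G protein beta-gamma subunits, gave promoter differences of -0.22 ± 0.13 and -0.16 ± 0.11 and gene body differences of -0.13 ± 0.08 and 0.09 ± 0.09. Kctd7, a gene of progressive myoclonic epilepsy, had a promoter difference of 0.30 ± 0.15 (adjusted p = 0.631), higher in KO in every pair, and Kctd17, which acts on trichoplein in ciliogenesis, was at 0.41 ± 0.24 in its promoter and -0.13 ± 0.08 in its gene body.

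The place of Pol II within a gene was compared through the ratio of promoter to gene body counts (pausing index) and of TES region to gene body counts. No member was called for the pausing index by limma (0 of 62, against 0.0331% of all genes, smallest adjusted p 0.286) or for the TES to gene body ratio (0 of 63, against 0.00828%, smallest adjusted p 0.564), and edgeR called 0 for both. At an unadjusted limma p under 0.05 the pausing index was higher in KO for 1 member and lower for 5 (1.61% and 8.06%, against 7.05% and 3.65% of all genes), and by edgeR 9 of 62 members passed it in either direction, with 11.6% of all genes. Kbtbd6 had a pausing index, as signal per base, of 8.13, 8.50 and 6.59 in WT and 5.95, 5.51 and 2.80 in KO. All KO values were below all WT values (log2 -0.77 ± 0.21, adjusted p = 0.286), and among genes with at least 50 counts on average in both regions it was called (adjusted p = 0.0747, with 1.95% of genes called there). Klhl11, Klhl9, Kctd13 and Kctd12 were at -0.58 ± 0.19, -0.56 ± 0.19, -0.56 ± 0.20 and -0.50 ± 0.20.

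On the higher side, the pausing index of Kctd11 was 0.910, 0.665 and 1.05 in WT and 1.03, 1.65 and 1.87 in KO. KO was above WT in each pair (log2 0.78 ± 0.22, adjusted p = 0.297), followed by Klhl3 (0.56 ± 0.26) and Klhl21 (0.47 ± 0.22). Without pair 1, 5 members were called for the pausing index in either direction, as were 371 of all genes (3.07%). Of these members Kbtbd6, Kbtbd7 and Klhl11 were lower in KO in pairs 2 and 3, and Kctd11 was higher. Klhl34 was also called, and its direction is not given here. With all 6 libraries it was not tested, as its promoter averaged under 10 counts. For the TES to gene body ratio 2 members were higher and 6 lower at an unadjusted limma p under 0.05 (3.17% and 9.52%, against 1.43% and 5.84% of all genes), and by edgeR 8 members passed it, with 8.23% of all genes. Kctd15 had 0.501, 0.611 and 0.522 in WT and 0.317, 0.436 and 0.356 in KO per base (-0.57 ± 0.18), with all KO values below all WT values. Klhl11 and Kctd13 were at -0.57 ± 0.17 and -0.55 ± 0.18, and Klhl34, Kctd11 and Kbtbd3 on the higher side at 0.57 ± 0.22, 0.42 ± 0.18 and 0.34 ± 0.17.

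**Figure D4:**
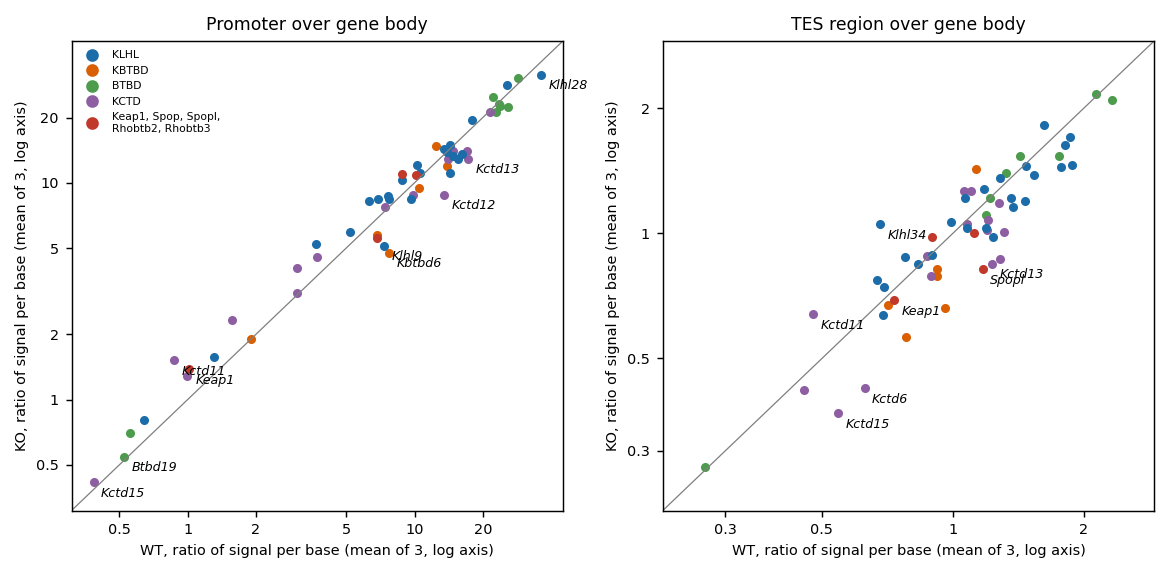
Promoter over gene body signal (left) and TES region over gene body signal (right), both per base, in KO against WT cells, as means of 3 libraries on log axes with the line of equality. Members follow the line on the left from 0.384 in Kctd15 to 36.2 in Klhl28, with Kbtbd6 below and Kctd11 above it, and on the right Kctd15 and Kctd6 lie below it.

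Gene body differences were also described by the length of the gene, a pattern looked at after the values were known. The 14 members that span under 10 kb had a median log2 difference of 0.15, with 12 above 0, the 30 of 10 to 50 kb a median of 0.03 with 18 above 0, and the 19 of 50 kb and over a median of -0.03 with 5 above 0. All genes showed the same order, with medians of 0.06, -0.01 and -0.04 and 64.2%, 47.0% and 26.5% above 0. Pair 2 did not show the order in members, with medians of 0.04, -0.02 and 0.02, while those of pair 1 were 0.23, -0.01 and -0.07 and those of pair 3 were 0.27, -0.03 and -0.07. The order in members was not limited to gene bodies. In the same span classes their promoter medians were 0.14, 0.05 and 0.02, against 0.02, 0.02 and 0.04 over all genes. Their TES medians were 0.09, -0.13 and -0.18, against -0.05, -0.08 and -0.11. Of the 5 gene bodies higher in KO at an unadjusted limma p under 0.05, Kctd12, Kbtbd6, Btbd17 and Klhl21 span under 10 kb and Klhl11 spans 10.1 kb. Both on the lower side are longer, Klhl42 at 21.4 kb and Btbd11 at 273 kb. These spans are from GENCODE. In RefSeq Btbd17, Klhl35 and Btbd3 span 11248, 10902 and 30841 bases, which would move each to another span class. The pattern was not described again with RefSeq spans. Exceptions among short members were Keap1 and Kctd11, at -0.04 and -0.06. The Spearman correlation between span and difference was -0.504 over the 63 members and -0.305 over 12060 genes, both as descriptions across genes that share their libraries.

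**Figure D5:**
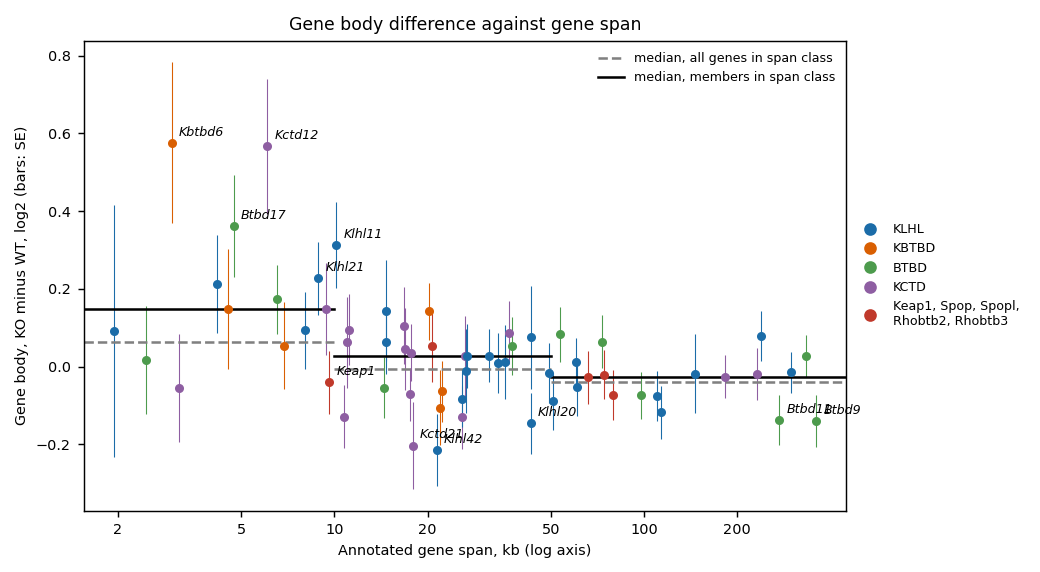
KO minus WT log2 difference of the gene body against annotated span in kb (log axis), as estimate and SE for each of 63 members coloured by family, with medians of members and of all genes in 3 span classes. Members under 10 kb lie mostly above 0 and those of 50 kb and over mostly just below it.

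The machinery around the adaptors was listed as well. Of 23 genes of the ligase core and its regulators 21 were measured, of 13 adaptors outside the naming rule 12, of 25 substrates and partners 23, and of 21 KEAP1-NRF2 targets 17. None was called in any region by limma. The counts of these lists at an unadjusted p stand against 7.55% of all genes higher and 2.4% lower in promoters, 4.82% and 3.59% in gene bodies and 1.4% and 4.84% in TES regions. Cul3 had a gene body signal of 124 ± 22.7 CPM in WT and 124 ± 17.4 CPM in KO (SD, n = 3), a log2 difference of 0.02 ± 0.06, and Rbx1 one of 0.02 ± 0.08. At an unadjusted limma p under 0.05 the ligase core had 1 promoter (Gps1) and 3 TES regions lower in KO, those of Cops2, Cops5 and Glmn at -0.58 ± 0.17, -0.52 ± 0.18 and -0.55 ± 0.20. Cops2 and Cops5 encode subunits of the COP9 signalosome, which removes NEDD8 from cullins.

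Of the adaptors outside the rule 2 promoters were higher in KO at that threshold, Tnfaip1, which encodes a RHOA adaptor related to KCTD10 and KCTD13, at 0.48 ± 0.16, and Lztr1, which encodes an adaptor for RAS proteins, at 0.32 ± 0.13. Of the substrates and partners the Rhoa promoter was higher (0.46 ± 0.11), 4 gene bodies were lower (Gabbr1 at -0.39 ± 0.11, Gabbr2 at -0.15 ± 0.05, Nfe2l2 at -0.19 ± 0.07 and Gli2 at -0.13 ± 0.05), 1 was higher (Aurkb at 0.40 ± 0.17), and 3 TES regions were lower (Gabbr1, Nfe2l2 and Gnb1). Of the NRF2 targets 4 promoters were higher (Gclc at 0.45 ± 0.13, Txn1 at 0.32 ± 0.10, Gstm1 at 0.59 ± 0.21 and Prdx1 at 0.25 ± 0.11) and 3 gene bodies (Ftl1 at 0.30 ± 0.09, Prdx1 at 0.23 ± 0.09 and Txn1 at 0.16 ± 0.07), with the Ftl1 TES region lower. The targets Nqo1 and Hmox1 were at 0.00 ± 0.13 and 0.03 ± 0.17 in their gene bodies. The adjusted p of all of these was 0.241 or above.

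Receptor genes of other ligases were taken for comparison, with BTB zinc finger genes as another family with BTB domains. Of 54 F-box genes, which serve CUL1, 12 DCAF genes, which serve CUL4, and 32 BTB zinc finger genes, none was called in any region. Their median log2 differences in gene bodies were -0.03, -0.05 and 0.03, against 0.02 for the 63 adaptors, and in TES regions -0.16, -0.13 and -0.07, against -0.09. Within the adaptors the gene body medians were 0.01 for KLHL, 0.10 for KBTBD, 0.03 for BTBD, 0.03 for KCTD and -0.03 for the 5 single genes. Differences between families were not tested.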

How the data were processed

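ChIP-seq reads of 3 WT and 3 Armc5(-/-) NPC libraries had been processed by the authors into whole-number counts per gene for promoter, gene body and TES region, stacked in 1 table of 36321 regions, with log2 CPM values deposited beside them. The tools in the submitters' processing notes are bcl2fastq (2.20), limma, edgeR, BWA, Trimmomatic, HOMER, MACS2 and Picard, and the build is mm10. The sources used here do not give the gene annotation behind the regions or how strands were counted.

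Counts were scaled by TMM (edgeR 4.0.16) and all 36321 regions were fitted in 1 limma-voom model (limma 3.58.1, R 4.3.3) with genotype and the replicate pair, without a filter on low counts. A region was called at a Benjamini-Hochberg adjusted p under 0.1 over all regions. SEs and 95% intervals come from this fit. The block was kept because the study's methods describe replicate pairs, and samples of a pair deviated together from their group means (correlations 0.561 to 0.876 over 3 kinds of region). The study's methods call the pairs biological replicates, and which animals each library came from is not stated. The authors had removed genes without POLR2A signal in KO cells. Log2 ratios of regions, with 0.5 added to each count for genes whose regions both averaged 10 or more counts, were tested with limma. Sums over members were compared by two-sided exact permutation. The scripts were tested on simulated data.

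Members, gene lists and rules were chosen with earlier results of these data known. Genes were named if called, if among the 5 smallest p in each direction and region, if among the 3 highest or lowest WT levels, if among the 3 smallest p of a ratio in each direction, or if in a set of adaptors with well-known substrates. From each list called genes were to be named and otherwise the 2 smallest p, and Cul3, Rbx1, Nqo1, Hmox1 and the other genes with an unadjusted p under 0.05 were added after their values were seen. Positions are from GENCODE vM21 (GRCm38) for 12060 genes, promoter sequences from RefSeq (GRCm38.p6). Alternatives were no block, DESeq2 (1.42.0) size factors, TMM within each kind of region, scaling on gene bodies of lowest signal, edgeR, DESeq2, the deposited log2 CPM, filters on low counts, removal of X- and Y-linked genes, and leaving out each pair and library. Proteins were not used here.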

Additional observations from a re-analysis of the deposited data

How the results depend on the processing

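No member was called in promoters, gene bodies or TES regions with no replicate block, with another scaling of the libraries (DESeq2 size factors, TMM within each kind of region, gene bodies of lowest signal), with edgeR, DESeq2 or the deposited log2 CPM, with a filter at a mean of 10 counts, or without X- and Y-linked genes. The pairing mattered for the whole table: with no replicate block limma called 0 of all genes in each region, against 21 promoters, 25 gene bodies and 3 TES regions with it. Under the other settings with all libraries the counts over all genes were 12 to 53, 12 to 59 and 2 to 18. When each pair or library was left out in turn, 0 to 2 member promoters were called (Klhl21 without pair 1, Klhl21 and Btbd9 without WT or KO replicate 1, Btbd17 without pair 3 or either of its libraries), 0 to 1 gene bodies (Btbd9 without pair 1 or either of its libraries, Kctd12 without WT or KO replicate 3) and 0 TES regions. The counts over all genes then ran from 2 to 356, from 6 to 152 and from 3 to 59. Leaving out 1 library of a pair removes that pair from the genotype difference when pairs are blocks.

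For the pausing index 1 member, Kbtbd6, was called with a minimum mean of 50 counts in both regions (180 of all genes, against 4), and 0 to 5 when a pair was left out, with 5 without pair 1. The edgeR interaction called 274 of all genes and 0 members. For the TES to gene body ratio 0 members were called under all settings run, with 0 to 59 of all genes. The median log2 difference of member gene bodies was 0.0175. It was 0.0429 with scaling on gene bodies of lowest signal, under which the median over all gene bodies turned from -0.01 to 0.02, and -0.0116 to 0.0316 when pairs or libraries were left out. For members under 10 kb it was 0.147 and for those of 10 kb and over -0.0148, a split chosen after seeing the data. The member medians in promoters and TES regions moved by less than the spread between pairs, from -0.01 to 0.06 and from -0.11 to -0.02. Intervals were widest in TES regions, where 22 of 63 lay within 1.5-fold, and the parts of depth and of spread between libraries were not separated.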

Other observations

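The 3 X-linked adaptors can be set beside the Y-linked signal, which was low in WT replicate 3. The gene body of Klhl13 held 107, 76.9 and 179 CPM in WT and 108, 97.1 and 135 CPM in KO, and that of Klhl15, whose product acts on the phosphatase PP2A, held 24.8, 30.0 and 59.5 CPM in WT and 32.2, 36.7 and 43.1 CPM in KO. WT replicate 3 was the highest library for both. It was also the highest for the signal summed over all member gene bodies, at 5202 CPM against 3664 to 4917 CPM in the others. The Klhl34 gene body held 0.440, 1.03 and 2.44 CPM in WT and 0.432, 1.63 and 1.77 CPM in KO, again highest in WT replicate 3. None of the 3 was called in any region.

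TES signal relative to the gene body differed among members in WT cells. The ratio per base was 2.33 ± 1.12 for Btbd9 and 2.14 ± 0.477 for Btbd7, and 0.269 ± 0.0997 for Btbd19 and 0.454 ± 0.199 for Kctd12 (SD, n = 3). In TES regions per kb the highest members in WT were Kctd17 at 4.33 ± 1.26, Kctd20 at 4.17 ± 0.376 and Btbd2 at 4.14 ± 0.890 CPM per kb, all 3 of which overlap another gene there (Tmprss6, Stk38 and Csnk1g2), and their reads cannot be told apart from those of that gene. The lowest were Klhl34 at 0.515 ± 0.411, Klhl29 at 0.723 ± 0.293 and Klhl15 at 0.730 ± 0.376 CPM per kb.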
